A study of Rattus norvegicus with 16 samples.

Results

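The miRNAs of the imprinted Dlk1-Meg3 domain were followed through small RNA libraries of the rat. The members were chosen by name, as the listed hairpins of the domain on rat chromosome 6. Of 38 listed hairpins, 35 had entries in the read files, out of 392 hairpins in all, and reads of 68 of their arms were found among 713 arms with reads. The names rno-mir-665, rno-mir-666 and rno-mir-667 were not among the hairpin names of the rat, and the human mir-665 and the mouse mir-666 and mir-667 entries that the files hold are described with the other hairpins of the locus.

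Kidney, testis, heart, spleen, liver and whole brain of adult males of 2 inbred strains were sequenced, the brown Norway BN-Lx (polydactyly-luxate syndrome) and the spontaneously hypertensive SHR. A single rat of each strain gave all 6 tissues, so a tissue had 1 library per strain (the six-tissue set, 12 libraries), and 2 further livers of each strain completed the series of 16 libraries. The animals carried no transgene or treatment. The strains served as the only replicates of a tissue in the six-tissue set. The p-values of the brain comparisons therefore rest on the spread left after tissue and strain are fitted, shared over all tissues. That spread holds strain differences that vary by tissue together with technical differences.

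The domain is imprinted. Dlk1 and its neighbours are expressed from the paternal chromosome, whereas Meg3 and the long noncoding RNAs downstream of it are expressed from the maternal one, and the miRNAs of the domain are processed from these maternal transcripts. The miRNAs are known chiefly from embryo, placenta and brain, where several act in neurons on dendrites and synapses. In most other adult tissues they are known to be low.

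The arms that carried most of the reads in brain, and the arms that share a seed with another member, are shown first. Each sequence is the most frequently read form in brain, read from the RefSeq hairpin (GRCr8) at the positions the files give, except for mir-376b-5p, for which the RefSeq mature miRNA is given. Capitals mark the seed, bases 2 to 8 from the 5′ end, which pairs with target mRNAs. The 10 most read arms come first, from the highest.
mir-487b-3p: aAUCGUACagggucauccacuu
mir-434-3p: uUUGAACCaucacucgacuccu
mir-323-3p: gCACAUUAcacggucgaccucu
mir-136-5p: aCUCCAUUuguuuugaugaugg
mir-495-3p: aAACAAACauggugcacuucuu
mir-434-5p: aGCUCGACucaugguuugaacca
mir-382-5p: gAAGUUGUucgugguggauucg
mir-127-3p: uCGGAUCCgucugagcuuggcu
mir-329-3p: aACACACCcagcuaaccuuuu
mir-369-5p: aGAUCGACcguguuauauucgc
The next pair has a common seed, AUGUAAC.
mir-411-3p: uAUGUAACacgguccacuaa
mir-379-3p: uAUGUAACaugguccacuaa
The last pair shares the seed UGGAUAU.
mir-376b-5p: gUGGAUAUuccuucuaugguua
mir-376c-5p: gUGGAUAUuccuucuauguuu
Among the 57 member arms with at least 20 reads over both brains, 55 different seeds were found, and the 2 shared ones were those of these pairs.

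The reads of a library are counted here as its perfectly matching reads on miRNA hairpins, and shares and RPM refer to that total. Reads of the cluster made up 4.94% of the BN-Lx brain library (52631 of 1064894 reads, exact 95% interval 4.90 to 4.98%) and 4.59% of the SHR brain library (39532.5 of 860468, 4.55 to 4.64%). In liver, spleen, heart and kidney of the same rats they made up between 0.0251% (SHR liver) and 0.135% (SHR kidney). In testis they made up 0.365% in BN-Lx (98 reads, interval 0.296 to 0.444%) and 0.481% in SHR (140 reads, 0.404 to 0.567%). All 35 hairpins had reads in both brains, against 20 to 30 of them in the other 10 libraries. When the reads per 1000000 reads of the library (RPM) of the 6 tissues were added, 88.6% of the cluster's RPM lay in brain in BN-Lx and 85.3% in SHR, a mean of 87.0 ± 2.37% (SD, n = 2 strains). Leaving out testis raised the mean to 94.2%. Intervals cover counting error only, since PCR copies of a read cannot be told from separate molecules.

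The depth of the libraries sets what can be seen. The testis libraries held 26880 and 29131 reads on hairpins, so that a single read there was worth 37.2 and 34.3 RPM, against 0.939 to 2.48 RPM elsewhere in the six-tissue set. The paper reports that small RNAs of testis came mostly from repeats or from classes other than miRNAs. These totals are therefore not the number of reads sequenced. Testis was also prepared with more PCR cycles than most libraries, as was the SHR liver of the six-tissue set. The labels of brain, liver, heart, testis and spleen matched their marker miRNAs. The level of mir-124 was 25784 and 66959 RPM in brain, and that of mir-122 was 344195 and 389821 RPM in liver. Heart had 2223 and 2522 RPM of mir-208, testis 24888 and 43287 RPM of mir-202, and spleen 99554 and 131291 RPM of mir-223. The kidney markers did not set kidney apart from liver. Kidney had 98344 and 71987 RPM of mir-192, against 147178 and 99837 RPM in liver. For mir-194 the values were 1040 and 4325 RPM in kidney and 2551 and 4082 RPM in liver.

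**Figure D1:**
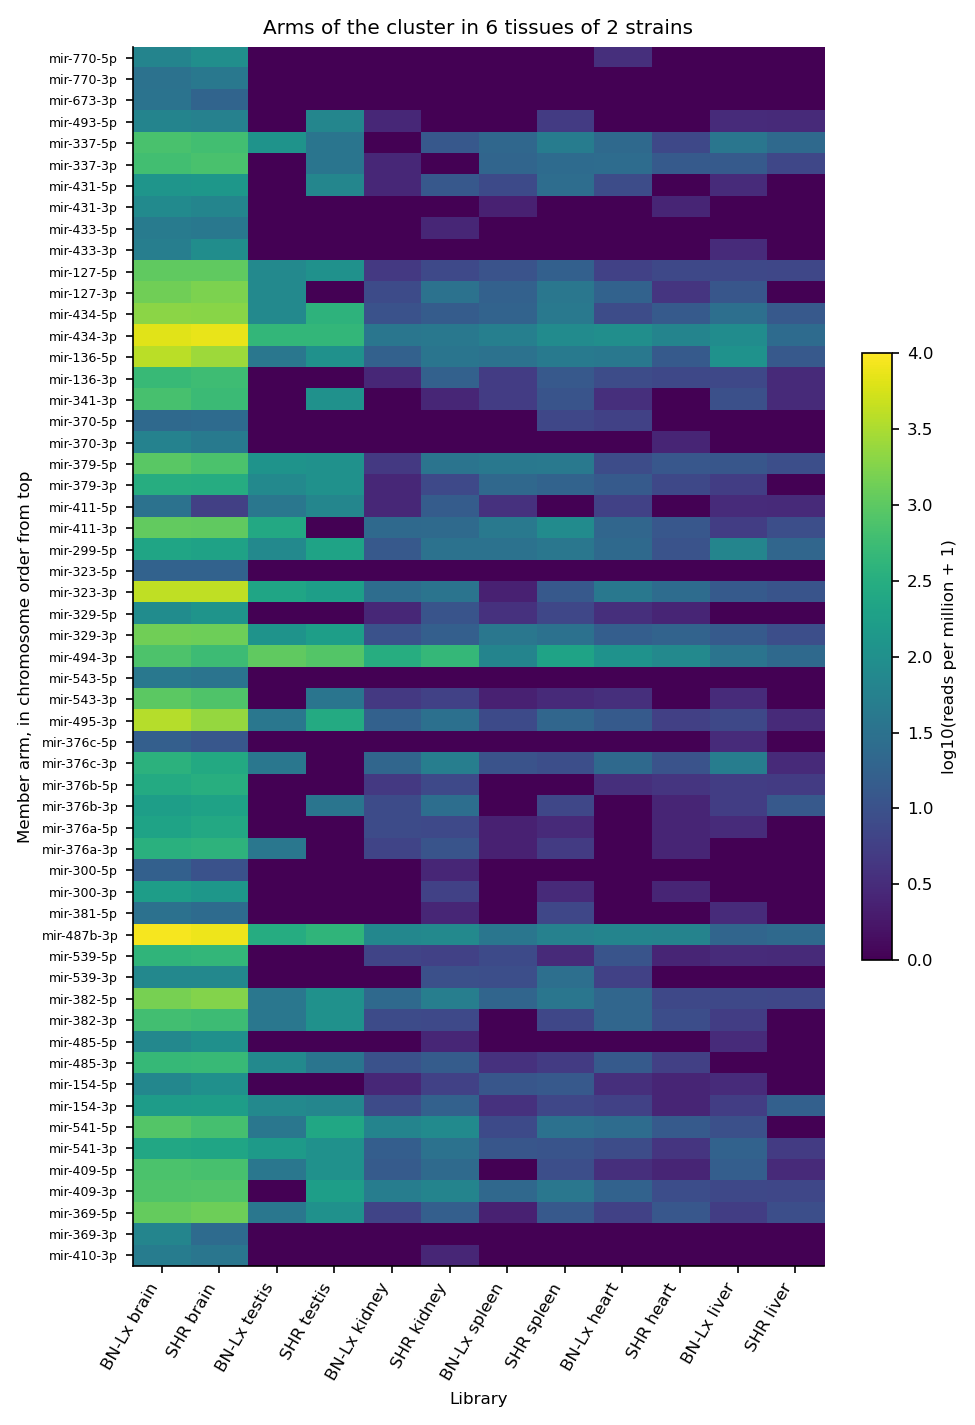
Level of each member arm with at least 20 brain reads (rows, in chromosome order) in 12 six-tissue libraries (columns); the colour gives log10(RPM + 1). The 2 brain columns are the brightest for nearly every arm, and mir-494-3p is the arm with a bright row in testis and kidney as well.

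In brain, the hairpins of the cluster spanned a wide range. The hairpin mir-434 was the most read one over both brains, with 8737 RPM in BN-Lx and 9171 RPM in SHR, followed by mir-487b with 8855 and 7935 RPM. These 2 hairpins held 36.3% of the cluster's brain reads, and with mir-323, mir-136, mir-495 and mir-127 the share was 64.5%. At the other end, 15 hairpins held less than 1% each. The lowest was mir-377, with 7 reads in the BN-Lx and 6 reads in the SHR brain (6.57 and 6.97 RPM), the only member with fewer than 10 reads in each brain. The range between the highest and lowest hairpin was 1347-fold in BN-Lx and 1315-fold in SHR. Comparisons between hairpins within a library also carry the capture bias of each sequence, which these data do not measure.

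Along the chromosome the members form 2 groups on the plus strand, within chr6:134298084-134579838 of GRCr8. The upstream group runs from mir-770 to mir-370 and holds 12 of the 35 members, among them mir-431, mir-433, mir-127, mir-434 and mir-136, which lie antisense to Rtl1, a retrotransposon-derived gene of the paternal chromosome. The downstream group runs from mir-379 to mir-410 and holds 23 members. The 2 groups lie 188957 bases apart, measured from mir-370 to mir-379. The downstream group gave 31385 RPM in BN-Lx and 28544 RPM in SHR brain, and the upstream group 18038 and 17399 RPM. The median hairpin stood at 765 and 646 RPM downstream and at 148 and 163 RPM upstream. High and low hairpins alternated within both groups. In the upstream group mir-434 stood 3 hairpins from mir-370, which had 80.8 and 66.2 RPM, and in the downstream group mir-487b lay next to mir-539, with 483 and 522 RPM. On the other side of mir-487b lay mir-381, with 30.0 and 25.6 RPM. Longer reads of the 3p arm of mir-381 run past its hairpin's end, so this value cannot be read as its level.

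**Figure D2:**
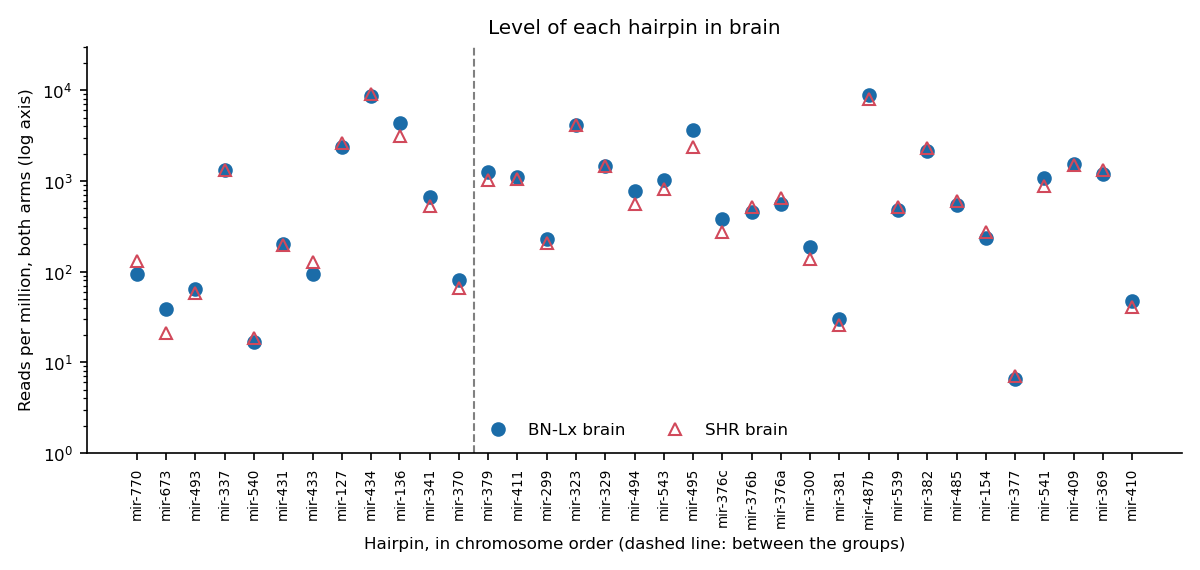
RPM of each hairpin, both arms added, in BN-Lx brain (filled circles) and SHR brain (open triangles) on a log axis, with the hairpins in chromosome order and a dashed line between the 2 groups. The strains nearly coincide while neighbours differ, from mir-377 at 6.57 RPM in BN-Lx to mir-487b at 8855 RPM.

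The question that the tissue set addresses is which miRNAs mark a tissue. Of the 68 member arms, 53 had enough reads for a test across all arms, in which brain was set against the mean of the other 5 tissues with the strains as replicates (edgeR quasi-likelihood test, Benjamini-Hochberg adjusted over 457 arms, two-sided). Of these 53 arms, 52 were higher in brain and none was lower. An arm could pass the read filter through the 2 brain libraries alone. For arms such as mir-369-3p, mir-543-5p and mir-770-3p, with no read in the other tissues of the six-tissue set, the direction was fixed once they passed. Over all arms tested, 38.9% were called higher in brain and 23% lower. The median difference of the member arms was 5.68 on the log2 scale, beside 0.46 for all arms tested. With scaling by total reads these medians were 6.34 and 1.19, so that 0.46 and 1.19 are the shifts of all arms against which the members' values stand. In the split of all calls, 178 were higher and 105 lower with the main scaling, against 214 and 70 by total reads. The exception was mir-411-5p, the minor arm of its hairpin, at a log2 difference of 0.91 ± 1.0 (SE; edgeR adjusted p = 0.481). Its level was 31.0 RPM in BN-Lx and 4.65 RPM in SHR brain, and up to 68.7 RPM, which is 2 reads, in testis.

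The 15 arms that were not tested had too few reads. They were the 2 arms of mir-377, both arms of mir-540 and mir-673, and the minor or rarely read arms mir-299-3p, mir-300-5p, mir-323-5p, mir-376c-5p, mir-381-3p, mir-410-5p, mir-487b-5p, mir-493-3p and mir-494-5p. For mir-381-3p a single read was found, in the SHR brain. The RefSeq hairpin of mir-381 ends 20 bases from the annotated start of this arm, so that only reads of at most that length lie wholly on it. Of the cluster's brain reads, 87.7% were longer than 20 nt, so the value of mir-381-3p cannot be read as its level.

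The most read member was mir-487b-3p, at 8851 RPM in BN-Lx and 7933 RPM in SHR brain. In the other 10 libraries it ranged from 19.2 RPM to 412 RPM in SHR testis, with a median of 61.1 RPM. Both brains stood above every other library, and the log2 difference was 6.26 ± 0.30 (SE; edgeR adjusted p = 7.23e-09). The next, mir-434-3p, had 6699 and 7236 RPM in brain and 23.9 to 446 RPM elsewhere (median 73.2), a difference of 5.68 ± 0.36 (edgeR adjusted p = 3.85e-08). Its partner mir-434-5p, read from the other arm of the hairpin, had 2038 and 1935 RPM in brain, 7.44 to 378 RPM elsewhere and a difference of 5.54 ± 0.41. For both arms of mir-434 the highest value outside brain was a testis library.

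Among the other strongly read arms, mir-323-3p had 4165 and 4081 RPM in brain against 1.36 to 223 RPM elsewhere (median 25.5), a log2 difference of 6.60 ± 0.39. For mir-136-5p, the leading arm of a hairpin antisense to Rtl1, the brains gave 3823 and 2551 RPM and the other libraries 11.97 to 107 RPM (median 36.2), and here the highest other library was BN-Lx liver and not testis. For mir-495-3p the brain values were 3621 and 2351 RPM, and those elsewhere 2.00 to 275 RPM (median 14.5). The differences of these 2 arms were 5.63 ± 0.50 and 6.75 ± 0.47. In all 3 arms the lower brain stood above the highest other library, and within SHR the brain was 8.56-fold or more above the next tissue.

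The remaining 4 of the 10 most read arms were of similar range. The level of mir-382-5p in brain was 1518 and 1789 RPM, with 5.99 to 103 RPM elsewhere. The level of mir-127-3p, a widely conserved miRNA of the Rtl1 antisense transcript, was 1345 and 1601 RPM in brain and 0 to 74.4 RPM elsewhere. The values of mir-329-3p were 1377 and 1332 RPM in brain and 7.98 to 172 RPM elsewhere, and those of mir-369-5p were 1136 and 1288 RPM against 1.36 to 103 RPM. These 4 arms differed by 5.54 ± 0.40, 5.89 ± 0.61, 5.06 ± 0.35 and 6.17 ± 0.39 on the log2 scale, each at an edgeR adjusted p of 3.08e-06 or less. The largest fitted difference among the members was that of mir-543-3p, 7.55 on the log2 scale, with 979 and 787 RPM in brain and a median of 2.07 RPM elsewhere.

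The members mir-376a, mir-376b and mir-376c lie next to each other and resemble each other in sequence, and with mir-377 they belong to the miRNAs whose A-to-I editing the study examined. An edited base is read as G, and only perfectly matching reads are in the files, so the values below count unedited molecules only. The 3p arms are shown, that of mir-376b as the RefSeq mature miRNA and the other two as most often read in brain.
mir-376a-3p: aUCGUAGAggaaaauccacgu
mir-376b-3p: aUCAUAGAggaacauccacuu
mir-376c-3p: aACAUAGAggaaauuucacgu
Their seeds differ from each other. The level of mir-376a-3p was 343 RPM in BN-Lx and 390 RPM in SHR brain, that of mir-376b-3p 174 and 198 RPM, and that of mir-376c-3p 365 and 265 RPM. Outside brain mir-376a-3p had a median of 1.47 RPM and mir-376b-3p one of 5.15 RPM, whereas mir-376c-3p had one of 14.9 RPM and reached 50.2 RPM in SHR kidney and 49.1 RPM in BN-Lx liver. All 3 were higher in brain than the mean of the other tissues, by 6.67 ± 0.58, 4.60 ± 0.60 and 3.46 ± 0.63 on the log2 scale (edgeR adjusted p of 3.96e-04 or less). Of the 5p arms, mir-376a-5p had 210 and 256 RPM in brain, mir-376b-5p 275 and 317 RPM and mir-376c-5p 15.0 and 11.04 RPM. For mir-377, the 5p arm had 1.88 and 5.81 RPM and the 3p arm 4.70 and 1.16 RPM, and neither had a read in the other 10 libraries. Positions with a fractional number of reads, a mark of reads split between hairpins, held 0.0543% of the brain reads of mir-376b and 0.0778% of those of mir-376c. They held none of those of mir-376a. Split reads that add up to a whole number at a position are not seen in this way.

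Brain was then compared with each other tissue in the same fit. Of the 53 member arms, 51 were higher in brain than in heart (33.5% of all arms), 49 than in kidney (34.4%), 47 than in liver (36.1%), 46 than in spleen (31.9%) and 31 than in testis (26%). The 31 arms of the testis comparison passed in all 5 comparisons, which 17.9% of all arms did. The tested arms that did not pass against every tissue were thus 22, and each of these missed the threshold against testis. Of these, mir-370-5p and mir-411-5p passed in none of the 5 comparisons, and mir-494-3p missed it only against testis and kidney. The count depended on single libraries, and the share of all arms under the settings that follow was not determined. Leaving out both testis libraries gave 43 of 53 arms, leaving out the BN-Lx testis 20 of 54 and leaving out the SHR testis 19 of 54. Without the BN-Lx brain it was 21 of 53, and without the BN-Lx spleen 24 of 54.

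By the study's own criterion, at least 5-fold above every other tissue in both strains after division by the outlier-corrected mean (ocm, the mean over arms without the 3 most read), 41 of the 68 member arms counted as specific to brain, beside 18.7% of all arms. Without testis 51 arms did, beside 21.6% of all arms. The lower of the 2 brain values lay above all 10 other libraries for 59 of the 68 arms, beside 31.2% of all arms. The 9 arms that overlapped were mir-494-3p, mir-299-5p and the rarely read mir-381-3p, mir-410-5p, mir-411-5p, mir-487b-5p, mir-493-5p, mir-494-5p and mir-673-5p. Among the arms with no read at all in the 10 libraries, 9 in number, mir-369-3p had the most brain reads, 70 in BN-Lx (65.7 RPM) against 21 for SHR (24.4 RPM). In testis a count of 0 allows 112 and 103 RPM, above both of these values. Of these 9 arms, mir-377-5p, mir-377-3p, mir-381-3p and mir-493-3p had under 10 brain reads.

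An arm that was read well outside brain too was mir-494-3p.
mir-494-3p: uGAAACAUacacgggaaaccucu
It stood at 765 RPM in BN-Lx and 550 RPM in SHR brain. In testis it stood at 1042 RPM (28 reads) and 858 RPM (25 reads), above both brains. In kidney it had 312 RPM (170 reads) and 465 RPM (278 reads), in spleen 62.3 and 211 RPM, in heart 107 and 76.1 RPM and in liver 34.2 and 21.9 RPM. Against the mean of the other tissues it was higher in brain by 1.32 ± 0.40 on the log2 scale (edgeR adjusted p = 0.0112), the smallest difference among the arms called. Against kidney the difference was 0.21 ± 0.56 (edgeR adjusted p = 0.749), and against testis -0.24 ± 0.58 (edgeR adjusted p = 0.781), so at this replication neither was told apart from brain. It was higher in brain than in liver (3.31 ± 0.63), heart (1.85 ± 0.58) and spleen (1.47 ± 0.58), the last at an edgeR adjusted p of 0.0456. The call against the mean of the other tissues was lost without the BN-Lx brain, at 0.89 on the log2 scale (edgeR adjusted p = 0.257), and over all alternatives its adjusted p ranged from 0.00145 to 0.719.

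As a share of the cluster, mir-494-3p made up 1.55% of the cluster's reads in brain of BN-Lx and 1.20% in that of SHR. The share was 38.9 and 34.4% in kidney, 28.6 and 17.9% in testis, 10.9 and 19.2% in spleen, 15.2 and 17.8% in heart, and 5.52 and 8.73% in liver. It was the most read member arm in spleen, heart, testis and kidney by the mean of the strains. Of the arms of the neighbouring members, mir-329-3p had 9.19 and 15.1 RPM in kidney and 112 and 172 RPM in testis. For mir-543-3p the values were 3.68 and 5.02 RPM in kidney and 0 and 34.3 RPM in testis. A hairpin of the same strand that is no member, the mouse-named mir-1193, was read in both tissues too. It had 36.8 and 46.8 RPM in kidney, 74.4 and 412 RPM in testis, and 189 and 191 RPM in brain.

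The arm mir-299-5p had 225 and 203 RPM in brain. It had 64.1 RPM in BN-Lx liver, 206 RPM (6 reads) in SHR testis, and a median of 31.5 RPM over the 10 libraries, so that its values in SHR brain and SHR testis overlapped. It was higher in brain than the mean of the other tissues by 1.85 ± 0.52 (edgeR adjusted p = 0.00754), but missed the threshold against liver, spleen and testis. The call against the mean was lost without the BN-Lx brain, at 1.74 on the log2 scale (edgeR adjusted p = 0.0866), and without the SHR brain, at 1.84 (edgeR adjusted p = 0.0695). Over all alternatives that gave it a value the difference stayed between 1.62 and 2.52 and its adjusted p between 0.0011 and 0.0866. Of the other arms that were highest in a tissue by the mean of the strains, mir-136-5p had 107 RPM in BN-Lx liver and 11.97 RPM in SHR liver, and mir-434-3p 87.6 and 23.9 RPM. The BN-Lx liver carried this order, and in the SHR liver mir-434-3p was the highest. In spleen mir-434-3p had 52.8 and 84.5 RPM and mir-411-3p 40.7 and 84.5 RPM. In heart mir-434-3p had 94.2 and 61.9 RPM and mir-487b-3p 62.0 and 60.3 RPM. In testis mir-434-3p had 446 RPM in both strains, from 12 and 13 reads, and mir-487b-3p 298 and 412 RPM, and in kidney mir-487b-3p had 69.8 and 75.3 RPM and mir-541-5p 62.5 and 80.3 RPM.

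The traces outside brain were compared with miRNAs that mark neural cells. Without mir-494, the cluster in the other libraries of the six-tissue set stood at 0.505 to 1.95% of its level in brain of the same strain in liver, spleen, heart and kidney, and at 5.35 and 8.70% in testis. Of mir-124, a neuronal miRNA, the same libraries held 0.0497 to 0.981%, and testis 14.9 and 1.64%. Of mir-9, a miRNA of neural progenitors and neurons, they held 0.143 to 1.60% and testis 4.40 and 1.46%, and of mir-219, a miRNA of oligodendrocytes, 0.0441 to 0.541% and testis 2.42 and 1.23%. In each of these 10 libraries except BN-Lx testis the cluster's share of its brain level was above those of all 3 markers. In BN-Lx testis that of mir-124 was above it. In the 4 further livers, with 1167607 to 3229461 reads on hairpins, the cluster stood at 0.215 to 0.593% and mir-124 at 4.62e-04 to 0.0299%. Testis also held 3423 and 2815 RPM of mir-122, the miRNA of hepatocytes. The part of RNA from another tissue or library in the traces was not tested. In whole tissue, few cells with much of a miRNA and many cells with little cannot be told apart.

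**Figure D3:**
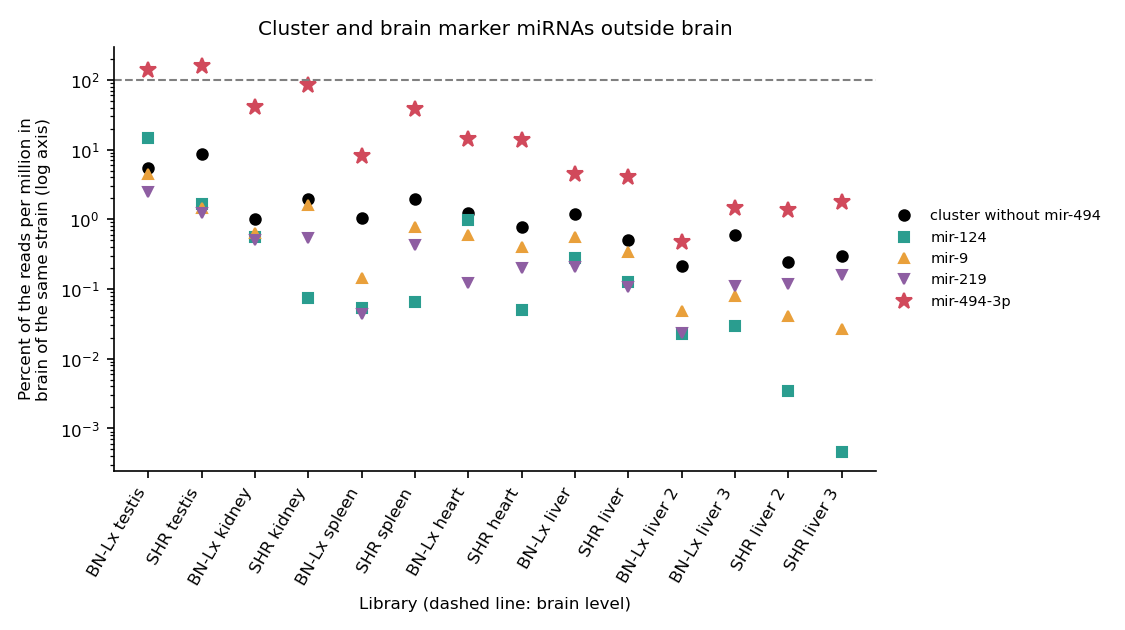
Level in each non-brain library as a percent of the RPM in brain of the same strain, on a log axis, for the cluster without mir-494 (circles), mir-494-3p (stars) and the brain markers mir-124, mir-9 and mir-219; the dashed line marks the level in brain. The stars of mir-494-3p lie at 136 and 156% in testis and 40.8 and 84.6% in kidney, while the circles stay at 8.70% or below.

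The members' levels were also followed together over the libraries. Over the 12 libraries, the median Spearman's rho of a member arm with the summed RPM of the other hairpins of the cluster was 0.66 (57 arms with at least 20 brain reads). Over the 10 libraries without brain it was 0.41 (52 arms), from -0.53 for mir-431-3p to 0.99 for mir-495-3p, and that of mir-494-3p was 0.77. These values are descriptions over libraries that share rats and differ in depth, and rare arms are at 0 in many of them. The order of the member arms by RPM was nearly the same in the 2 brains (rho = 0.99 across 68 arms) and similar in the traces, where the rho between brain and another tissue of the same strain lay between 0.68 (SHR liver) and 0.85 (SHR heart). Arms are not independent replicates, since the 2 arms of a hairpin come from a single precursor.

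Between the strains, the brain levels of the members were close. Over 52 member arms with at least 20 reads in each brain, the log2 ratio of SHR over BN-Lx had a median of -0.05 and an SD of 0.37, and 51 of the 52 lay within 1 log2 unit. For the other 287 arms with as many reads the median was -0.23, the SD 0.79, and 87.5% lay within 1 log2 unit. The arm beyond 1 was mir-369-3p, with 70 reads of the BN-Lx brain and 21 of the SHR brain, a ratio of 0.371 (exact 95% counting interval 0.216 to 0.612). The highest ratio was that of mir-433-3p, 1.80 (1.25 to 2.60), from 53 and 77 reads. Of the well read arms, mir-136-5p and mir-495-3p had ratios of 0.667 (0.633 to 0.703) and 0.649 (0.615 to 0.685). With 1 brain of each strain these intervals compare 2 libraries and not the strains.

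The livers gave the only comparison of strains with replicates, 3 rats of each. In each strain 1 liver belonged to the six-tissue set and 2 were further livers. Their shortest reads were 17 and 15 nt, and the main fit had no term for the set. The cluster made up 108 to 620 RPM in BN-Lx liver (342 ± 258, SD, n = 3) and 120 to 251 RPM in SHR liver (173 ± 69.5, n = 3), and the groups overlapped. Of the 9 member arms with enough reads, none passed the edgeR test at an adjusted p of 0.05 and none had an unadjusted p under 0.05, beside 0% and 2.21% of 271 arms. DESeq2 called none either. All 9 estimates were lower in SHR, with a median of -0.90 on the log2 scale beside -0.09 for all arms, and the lowest was that of mir-136-5p, -1.87 ± 0.94 (SE; edgeR adjusted p = 0.995). In this arm the BN-Lx livers had 107, 13.1 and 42.0 RPM and the SHR livers 11.97, 3.26 and 22.9 RPM. The high value was that of the BN-Lx liver of the six-tissue set. Without that liver the median of the members tested was -0.34, and among the 4 further livers alone -0.24.

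Each hairpin gives a 5p and a 3p arm, and both were read in brain in most members. Of the 34 members with at least 20 brain reads, 15 had at least 90% of them on a single arm, beside 66.4% of all hairpins with as many reads. Of these 15, 11 favoured the 3p arm and 4 the 5p arm. The latter include mir-381, where reads of the 3p arm longer than 20 bases run past the hairpin's end, so its share cannot be set beside the others. The median share of the leading arm was 85.3% for the members and 97.4% for the 225 other hairpins. In 33 of the 35 members reads of both arms were found in brain, and in 13 of the 34 the 5p arm held between 25 and 75% of the reads. No test was made of the difference from other hairpins, since the members are neighbours in the same locus.

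The hairpins mir-495 and mir-341 had no read of the 5p arm in either brain. By the exact interval this allows a 5p share of up to 0.0956% in BN-Lx and 0.182% in SHR for mir-495, and of up to 0.513 and 0.815% for mir-341. In mir-487b the 5p share was 0.0530 and 0.0293%, and in mir-323 it was 0.404 and 0.425%. On the other side, mir-369 had 94.5 and 98.1% on the 5p arm. Even use was seen in mir-337, with 53.2 and 46.1% on the 5p arm, in mir-409 with 47.9 and 45.5% and in mir-127 with 43.5 and 39.4%. Within the mir-376 hairpins the arms differed. The 5p share was 38.03 and 39.6% in mir-376a, 61.3 and 61.6% in mir-376b and 3.95 and 4.00% in mir-376c. Only unedited reads are counted in these shares, and the effect of the missing edited reads was not tested.

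Between the strains, the median difference in the 5p share was 2.46 percentage points. In 7 hairpins (mir-337, mir-127, mir-434, mir-136, mir-411, mir-382 and mir-369) the counting intervals of the 2 brains did not overlap. Counting intervals narrow as reads grow, and the share of all hairpins without overlap was not determined. The count therefore cannot be read as a trait of the members. Among the 7 hairpins the largest difference was in mir-337, and mir-136 had 88.4% (87.4 to 89.3%) in BN-Lx and 81.8% (80.3 to 83.3%) in SHR. The difference between rats of a strain is not known in brain. Outside brain, 23 members had at least 20 reads over the 10 libraries, and in 21 of them the leading arm was that of the pooled brain reads. Among the 21, mir-337 had 50.04% of its pooled brain reads on the 5p arm, and the 3p arm led in SHR brain. Outside brain its 5p arm held 62.1%. The exceptions were mir-376b and mir-539. In mir-376b the 5p arm held 28.3% (46 reads, interval 16.0 to 43.5%) against 61.3 and 61.6% in the brains. In mir-539 it held 41.3% (46 reads, 27.0 to 56.8%) against 85.0 and 86.2% in the brains. The value of mir-539 rested largely on spleen, which held 6 and 14 of the 27 3p reads, beside 5 and 1 reads of the 5p arm. In heart the 3p arm had 2 and 0 reads against 4 and 1 of the 5p arm. In kidney it had 0 and 5 against 3 and 3. Edited reads of mir-376b, which the study found edited in brain, are missing from these shares. Their effect on its leading arm was not tested.

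**Figure D4:**
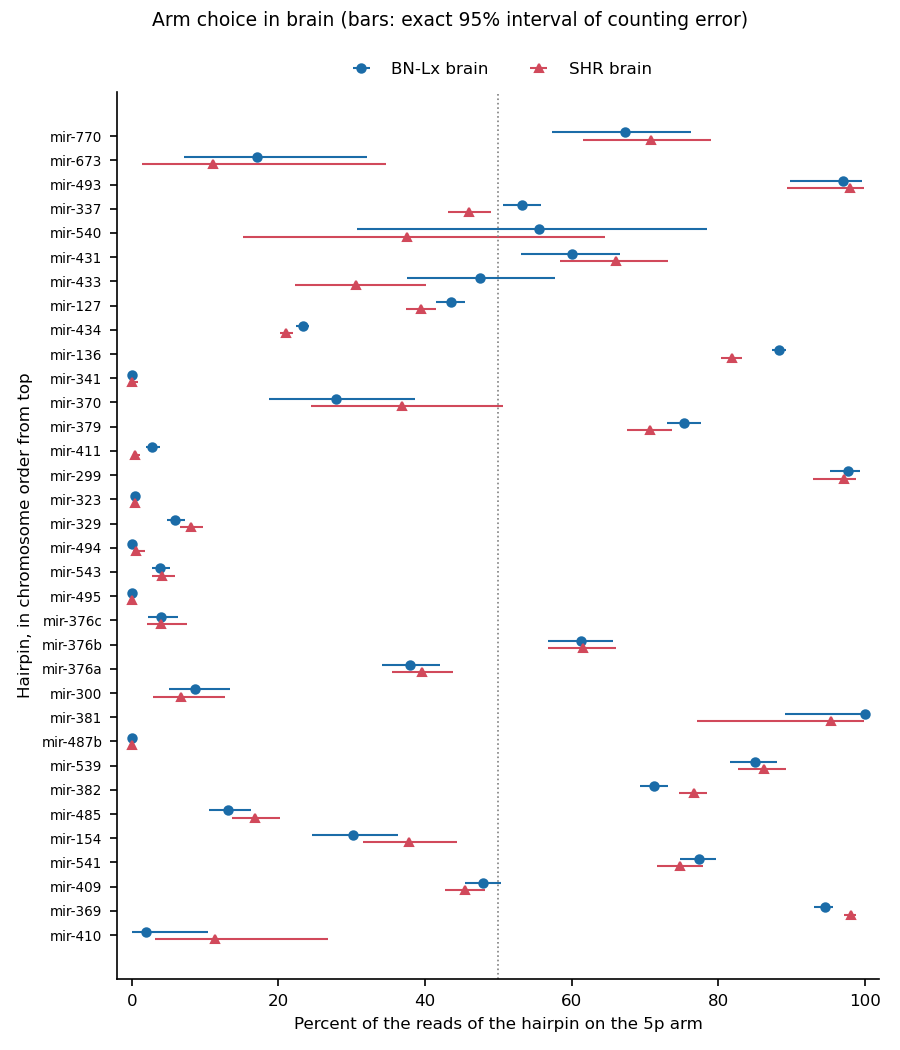
Percent of the reads of each hairpin on the 5p arm in BN-Lx brain (circles) and SHR brain (triangles), for the 34 members with at least 20 brain reads in chromosome order; bars are exact 95% intervals of counting error and the dotted line marks 50%. The 2 strains lie close to each other in most hairpins, and neighbours such as mir-376b and mir-376c lie far apart. Edited reads of the mir-376 hairpins are not counted.

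The start of the reads decides the seed. Of 57 member arms with at least 20 brain reads, 31 had at least 90% of them at a single start position, beside 72.1% of all arms. The median share of the main start was 91.3% for members and 97.0% for the 344 other arms. For 50 member arms a RefSeq mature miRNA could be placed on the hairpin, and in 43 of them the main start was the annotated one. The other 7 were mir-300-5p, mir-323-3p, mir-337-3p, mir-341-3p, mir-379-3p, mir-409-3p and mir-411-5p.

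In mir-323-3p, the third most read arm, the main start lay 1 base before the annotated one. The 2 forms with their seeds are as follows.
mir-323-3p, main start: gCACAUUAcacggucgaccucu
mir-323-3p, annotated start: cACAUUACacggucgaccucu
The main start held 61.5% of the arm's reads in BN-Lx and 62.2% in SHR brain, and the annotated start 38.04 and 37.4%, so that the split recurred in both strains. In mir-409-3p the main start, also 1 base early, held 58.3 and 56.5%, and the annotated one 30.4 and 32.5%. In mir-337-3p the main start lay 1 base late with 64.7 and 64.4%. In mir-127-5p, the arm paired with mir-127-3p, 2 starts lay 2 bases apart with 48.6 and 47.9% of the BN-Lx and 55.4 and 42.2% of the SHR reads.
mir-127-5p, main start: cUGAAGCUcagagggcucugauu
mir-127-5p, second start: gAAGCUCAgagggcucugauu

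In mir-379-3p the reads began 1 base after the annotated start, at 97.0% in BN-Lx and 95.3% in SHR brain. The RefSeq form and the form read here are shown with the 3p arm of mir-411, the next hairpin on the chromosome.
mir-379-3p, RefSeq: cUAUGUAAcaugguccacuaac
mir-379-3p, read in brain: uAUGUAACaugguccacuaa
mir-411-3p, read in brain: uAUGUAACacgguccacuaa
With the annotated start the seed of mir-379-3p differs from that of mir-411-3p, and with the start read here the seeds are the same. The arms were used differently in the 2 hairpins. The leading arm was the 5p arm in mir-379 (75.4 and 70.7% of the reads) and the 3p arm in mir-411 (5p share of 2.78 and 0.444%). The level of mir-411-3p in brain was 1083 and 1041 RPM and that of mir-379-3p 313 and 300 RPM.

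Other hairpins of the locus were read along with the members. Of 11 further hairpins on the same strand, 10 stood in both brains above all 10 other libraries, with 6830 reads in the brains and 264 elsewhere over the 11. The most read were the mouse-named mir-667 (1611 and 1551 brain reads), the human-named mir-496 (818 and 529) and mir-380 (504 and 287). The mouse-named mir-1193 was the exception, with 201 and 164 reads in brain but 132 in the other libraries, so that 48.6 and 27.2% of its RPM over the tissues lay in brain. Entries for the opposite strand, 10 in number, of which that of mir-380 belongs to these hairpins and the others to members, held 17.5 reads in the brains and 16 elsewhere. Of the nearest miRNAs outside the imprinted domain that were examined, mir-342, mir-345 and mir-203, none stood in both brains above the other libraries, and their share of RPM in brain was 2.40 to 23.6%.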

How the data were processed

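Small RNA of 16 rat libraries was analysed. The authors deposited estimated counts of reads per start and end position on a hairpin, without normalization. They made them from SOLiD reads mapped with SHRiMP to hairpins of RGSC3.4 and miRBase, kept perfect matches and split reads that fit more than 1 hairpin into equal parts. Libraries of the six-tissue set held 26880 to 1064894 reads on hairpins and those of the further livers 1167607 to 3229461, and intervals are exact (Clopper-Pearson, 95%). The README and the piRNA list were not used.

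Reads were summed per arm, split at the middle of the RefSeq hairpin (GRCr8) or at the widest gap between reads. Estimated counts were rounded and tested two-sided by the quasi-likelihood method of edgeR 4.0.16 after filterByExpr and TMM scaling, with p-values adjusted by Benjamini-Hochberg (threshold 0.05), with tissue and strain as terms, or strain alone in liver. DESeq2 1.42.0 was an alternative. The steps were tested on simulated counts. Other software was Python 3.11.15 with pandas 2.3.3, scipy 1.17.1, numpy 2.4.6 and matplotlib 3.10.9, and R 4.3.3. Intervals cover counting error only, and the limit for a count of 0 is 3 reads.

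Members, lists and tests were chosen with earlier results of these data known. Arms named were the 10 most read in brain, the 3 highest in each other tissue, mir-376a, mir-376b, mir-376c and mir-377, members under 10 brain reads, arms not called higher in brain and arms called in liver (none), with sequences for the first and for shared seeds. Arms singled out for their starts, arm use or strain ratio were chosen after their values were seen.

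Livers of equal number in the 2 strains had correlations of their deviations from the strain means of 0.667, 0.569 and 0.30. The third BN-Lx liver gave 0.206 with the second SHR liver. The labels state no pairing, and the first livers of both strains differ in set from the others. Pairing by number was therefore used in an alternative fit only. The labels number the further livers, and those of the six-tissue set were taken as the first.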

Additional observations from a re-analysis of the deposited data

How the results depend on the processing

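Thinned to the shallowest library, 16 member arms could be tested, 12 were higher in brain than the mean of the other tissues and 0 higher than each of them. Over all arms, 44 of 261 were higher than that mean in the thinned libraries. The thinned libraries hold few reads of most arms. The count against each tissue depended on single libraries, as given above. Leaving out a library leaves its tissue with 1 library. The median log2 difference of the member arms then stayed between 5.46 and 5.92, beside -0.26 to 0.58 for all arms. Scaling, tool, filter, strain term and summing mir-376a, mir-376b and mir-376c kept both counts within 1.5 times. They were 39 to 57 against the mean and 24 to 35 against each tissue. DESeq2 gave 39 and 28, and the fit without the read filter gave 57 and 31. Beside the 39 and the 57 stood 145 of 457 and 200 of 688 arms in all. For the count against each tissue, the share of all arms under these settings was not determined. Without testis the mean brain share of the cluster's RPM rose from 87.0 to 94.2%. In liver 0 arms were called under every alternative run, leaving out each liver in turn included. With the replicate block, the pairing of the livers by number, 0 of 9 member arms were called and 1 had an unadjusted p under 0.05, as with DESeq2, so the block changed no call. The block was not applied to the brain tests, where a tissue has no numbered replicates. Thinning also ended the calls of mir-494-3p (1.04 on the log2 scale), mir-411-3p (2.82) and mir-541-5p (4.01). The count of hairpins with at least 90% on a single arm was 13 to 19 and the count by the 5-fold criterion 30 to 58 under the alternatives run. Beside the 13 and 19 hairpins stood 167 and 202 of all 259 hairpins, and the 5-fold alternatives took in 14.2 to 26.9% of all arms. Depth limits mostly testis, where 3 reads, the limit for a count of 0, equal 112 and 103 RPM.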
